A study of Homo sapiens with 6 samples.

Results

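The 37 genes studied encode enzymes that remove acetyl or methyl groups from histones and other proteins, or add acetyl groups to them. They were taken by gene name from the 20175 protein-coding genes of the GENCODE annotation on hg19 (GRCh37) and fall into 15 deacetylase genes (9 HDAC and 6 SIRT), 13 KDM demethylase genes and 9 acetyltransferase genes (the KAT genes with EP300 and CREBBP). Chromatin accessibility was measured by ATAC-seq, in which a transposase inserts sequencing adapters into open DNA, in MDA-MB-231 cells, an established line from a triple-negative breast cancer. The Parental genotype had 3 libraries and SAP30-KO1 had 3, the latter from cells whose SAP30 gene, which encodes a SIN3 complex subunit, was disrupted with CRISPR/Cas9. Both groups grew in DMEM with serum. Per the study's methods a knockout line was a mixture of several single knockout cells picked after puromycin selection, and no step of that kind is described for the Parental cells, so the knockout and the selection cannot be told apart. The labels do not say whether the libraries came from separate cultures, so a p-value here measures the spread between libraries, which may be technical.

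Acetylation of histone tails loosens their hold on DNA and is read by bromodomain proteins. Acetyltransferases such as EP300 write the mark as coactivators, whereas HDAC enzymes, which need zinc, and sirtuins, which need NAD, remove it, often inside corepressor complexes such as those built on NCOR and SIN3. The KDM demethylases remove methyl groups from lysines in histone tails, KDM1A and KDM1B with the cofactor FAD and the others through a Jumonji domain, and they act at active or at repressed genes depending on the lysine.

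The measurement was the summit, the point of highest signal of a peak of open chromatin, with a score given as −log10 of its q value. The libraries held 36694, 30477 and 33552 summits in Parental 1 to 3 and 29762, 40650 and 34262 in SAP30-KO1 1 to 3. Each score was turned into a percentile rank within its own library, and a gene took the rank of its strongest summit within 1 kb of any of its annotated transcription starts, or 0 where it had none. The longest list gave the highest ranks and the 2 shortest the lowest: genes with a promoter summit in all 6 libraries averaged 72.5, 65.7 and 69.96 in Parental 1 to 3, and 65.7, 75.1 and 69.7 in SAP30-KO1 1 to 3. The reads behind a summit are unknown, and a rank 0 means that no summit was listed, not that the promoter was closed. The promoters of VIM, CD44, EGFR and CAV1, markers of mesenchymal-like breast lines, held a summit in all 6 libraries and that of AXL in 3, those of ESR1, PGR, GATA3 and FOXA1, markers of luminal cells, in 1, 1, 5 and 2, and those of the leukocyte genes PTPRC and CD3E in none. The SAP30 promoter itself ranked 84.7, 64.8 and 81.3 in Parental 1 to 3 and 71.8, 49.5 and 89.5 in SAP30-KO1 1 to 3, which does not check the knockout, since a small edit in the gene need not close its promoter.

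A promoter summit was found for 31 of the 37 genes in at least 1 library (83.8%, against 62.3% of all protein-coding genes) and for 19 in all 6 (51.4%, against 34.5%). Per library the number was 28, 27 and 26 in Parental 1 to 3 and 26, 28 and 28 in SAP30-KO1 1 to 3, a mean of 27 ± 1 against 27.3 ± 1.15 (SD, n = 3), a difference within the spread. The 6 genes with no promoter summit in any library were HDAC8, a class I deacetylase that works outside the large corepressor complexes, HDAC10, a polyamine deacetylase, SIRT6, which deacetylates chromatin, SIRT7, the nucleolar sirtuin, KDM5B, which removes methyl groups from lysine 4 of histone H3, and KAT2A, the GCN5 catalytic subunit of SAGA. By class, 11 of 15 deacetylase genes, 12 of 13 demethylase genes and 8 of 9 acetyltransferase genes had a summit in any library, and 8, 6 and 5 had one in all 6.

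**Figure D1:**
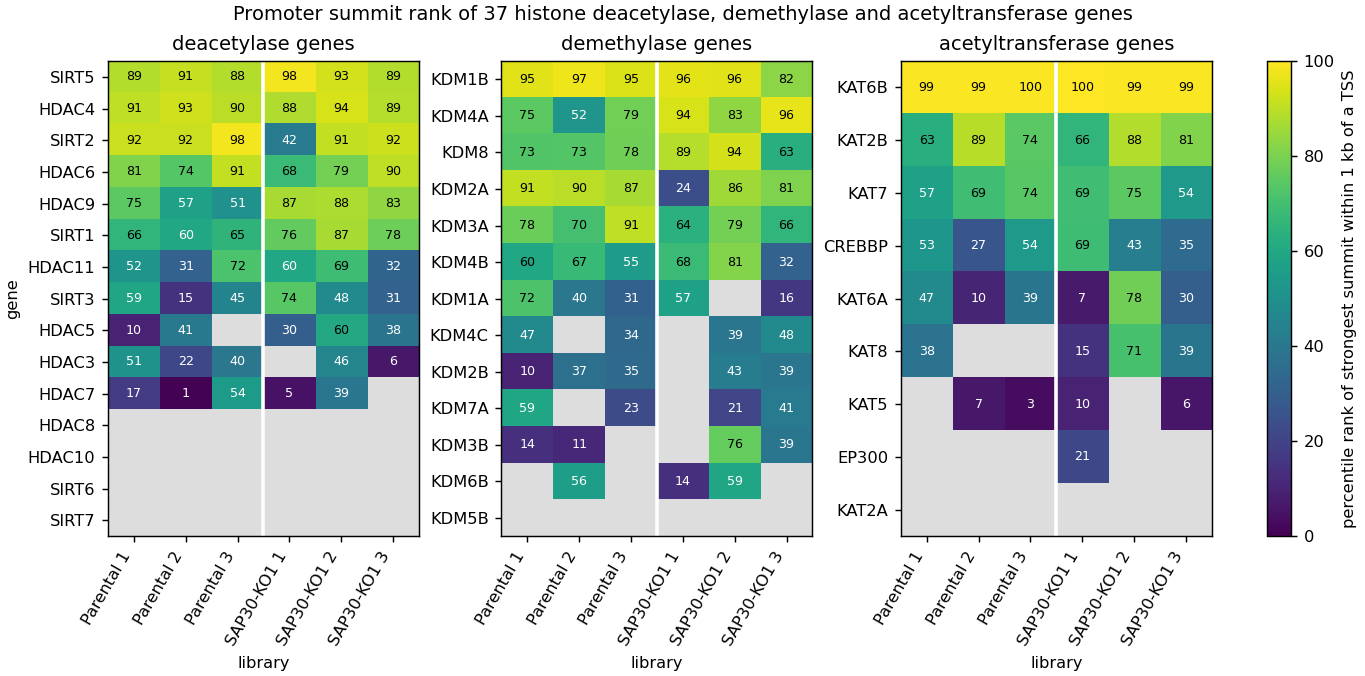
Percentile rank of the strongest promoter summit for each of the 37 genes (rows) in each of the 6 libraries (columns), by enzyme class, with the Parental libraries left of the white line and grey cells for no summit. KAT6B lies at 99 or 100 in every library, and 6 genes are grey throughout.

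These genes have many annotated starts, a median of 15 (range 3 to 52) against 5 (1 to 125) over all protein-coding genes, and each start widens the search. Among all genes with 10 to 19 starts, where 19 of the 37 fall, 83.3% had a summit in any library and 47.6% in all 6, and among those with 20 or more, where 9 fall, 91.4% and 54.8%. With the canonical start of each gene alone, 28 of the 37 (75.7%) had a summit in any library and 16 (43.2%) in all 6, against 56.6% and 30.1% of all genes. Base composition of canonical promoters differed too. For the 19 enzyme genes with a summit in all 6 libraries the median GC content was 72.7%, against 65.7% for all such genes. For the 6 enzyme genes with none it was 62.8%, against 57.0% for all genes with none. At the open sites themselves (summits joined as described below) the order was the reverse. The 21 enzyme sites found in all 6 libraries had a median GC content of 64.12%, against 66.45% for all 6188 such sites. For HDAC9, KDM2A and CREBBP, which are among the 19, the sites found in all 6 libraries lay far from the canonical start. The part of start number or base composition in the higher share of enzyme genes was not tested.

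**Figure D2:**
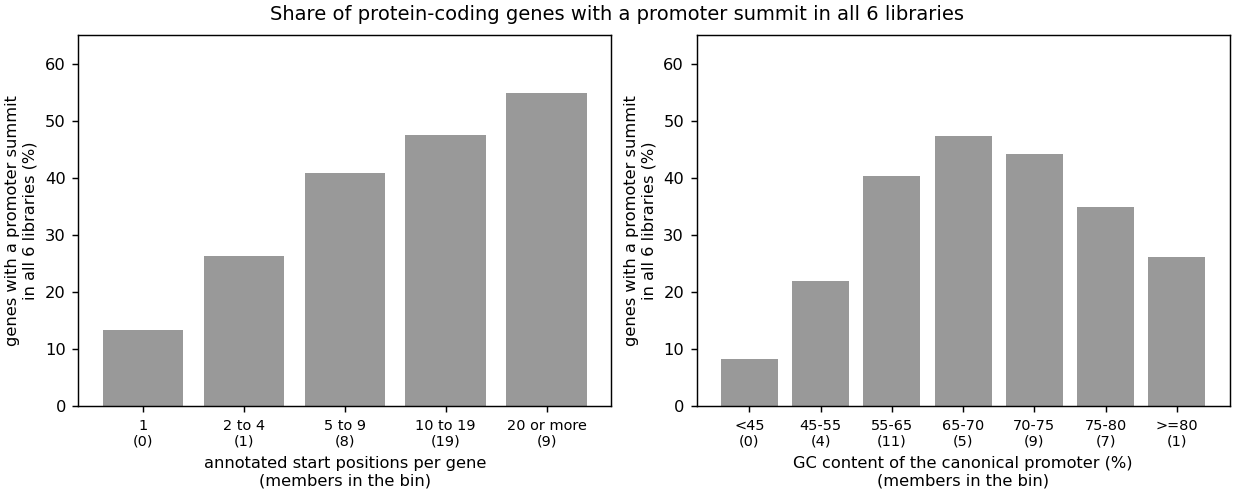
Share of all protein-coding genes with a promoter summit in all 6 libraries (bars, %) by the number of annotated start positions (left) and by GC content of the canonical promoter (right), with the number of the 37 enzyme genes in each bin in parentheses. The share runs from 13.3% at 1 start to 54.8% at 20 or more. By GC content it rises from 8.24% below 45% to 47.3% between 65% and 70%, and falls to 26.2% at 80% or more.

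Among the deacetylase genes the promoters of SIRT5, HDAC4, SIRT2 and HDAC6 ranked highest. SIRT5, the mitochondrial desuccinylase, ranked 88.6, 91.0 and 88.4 in Parental 1 to 3 and 98.3, 93.1 and 88.6 in SAP30-KO1 1 to 3. HDAC4, a class IIa enzyme that shuttles between nucleus and cytoplasm, stayed between 87.9 and 94.0, and HDAC6, the cytoplasmic tubulin deacetylase, between 68.0 and 90.8. SIRT2, also mainly cytoplasmic, ranked 91.8, 91.9 and 98.4 in Parental 1 to 3 and 41.6, 90.9 and 92.2 in SAP30-KO1 1 to 3, so that its lower SAP30-KO1 mean (74.9 against 94.0) came from SAP30-KO1 1. The lowest deacetylase promoter with a summit throughout was that of SIRT3, the main mitochondrial deacetylase, at 58.8, 14.7 and 45.1 in Parental 1 to 3 and 73.9, 48.0 and 31.4 in SAP30-KO1 1 to 3. HDAC11, the class IV enzyme, ranged from 31.4 to 71.6. The ranges of the groups overlapped in each of these 6 promoters.

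Another 3 HDAC genes had summits in some libraries. HDAC3, the catalytic subunit of the NCOR corepressor, ranked 51.4, 21.7 and 39.8 in Parental 1 to 3 and 45.6 and 6.43 in SAP30-KO1 2 and 3, with none in SAP30-KO1 1. HDAC5, a class IIa enzyme like HDAC4, ranked 9.58 and 40.6 in Parental 1 and 2, had none in Parental 3, and ranked 30.5, 60.2 and 38.5 in SAP30-KO1 1 to 3. HDAC7, the class IIa enzyme of endothelium and thymus, ranked 17.4, 0.774 and 54.4 in Parental 1 to 3 and 4.73 and 39.3 in SAP30-KO1 1 and 2, with none in SAP30-KO1 3. The mean difference, SAP30-KO1 minus Parental, was −20.3 for HDAC3, 26.3 for HDAC5 and −9.52 for HDAC7, each with overlapping ranges and SDs of 14.97 to 27.5 within a group. The HDAC7 value mixes 2 places: in Parental 3 and SAP30-KO1 1 the strongest summit lay at a site 6864 bp downstream of the canonical start. At the other site, −817 bp from that start (upstream), the difference was −2.14.

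The demethylase promoters ran from KDM1B, near the top of every list, to genes seen in few libraries. KDM1B, which demethylates lysine 4 of histone H3, ranked 95.4, 97.3 and 94.6 in Parental 1 to 3 and 96.1, 95.6 and 82.4 in SAP30-KO1 1 to 3. KDM8, a Jumonji protein described as a hydroxylase, lay between 63.2 and 93.7. KDM4B, which acts on trimethylated lysine 9 of histone H3, was the lowest demethylase promoter with a summit throughout, at 60.1, 67.4 and 55.4 in the Parental and 68.2, 81.4 and 31.6 in the SAP30-KO1 libraries. Its Parental 1 value came from a summit 77590 bp downstream of the canonical start, and near the canonical start KDM4B ranked 49.1 in Parental 1. The ranges of the groups overlapped in all 3.

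For 6 demethylase genes a summit was listed in some libraries. KDM1A, the CoREST demethylase LSD1, ranked 71.9, 39.7 and 30.98 in Parental 1 to 3 and 57.2 and 16.1 in SAP30-KO1 1 and 3, with none in SAP30-KO1 2. KDM2B, which binds CpG-rich DNA and recruits a Polycomb complex, ranked 9.94, 36.9 and 34.6, and then 42.5 and 39.4 in SAP30-KO1 2 and 3 with none in SAP30-KO1 1. KDM3B, an enzyme for lysine 9 of histone H3, ranked 13.98 and 10.9 in Parental 1 and 2 and 76.2 and 39.4 in SAP30-KO1 2 and 3, and had no summit in the other 2 libraries. In each of these 3 promoters a library without a summit stood beside others of its group with a summit. KDM4C, close kin of KDM4B, ranked 47.4 and 33.6 in Parental 1 and 3 and 39.3 and 48.0 in SAP30-KO1 2 and 3. KDM6B, which removes methyl groups from lysine 27 of histone H3, ranked 56.2 in Parental 2 and 13.7 and 59.2 in SAP30-KO1 1 and 2. KDM7A, a PHD-finger demethylase, ranked 58.6 and 23.3 in Parental 1 and 3 and 21.0 and 40.7 in SAP30-KO1 2 and 3. Differences of group means ranged over these 6 genes from −23.1 for KDM1A to 30.2 for KDM3B, and all 6 pairs of ranges overlapped.

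KAT6B, the MORF acetyltransferase of the MOZ family, had the highest promoter of all 37 genes, at 99.4, 99.5 and 99.6 in Parental 1 to 3 and 99.9, 99.4 and 99.5 in SAP30-KO1 1 to 3. Its mean over 6 libraries, 99.5, lay at the percentile 99.4 of the 6966 genes with a promoter summit in all 6 libraries. Its paralogue KAT6A, the MOZ enzyme itself, was the lowest of the 19 enzyme genes with a summit throughout, at 47.4, 10.3 and 38.9 in Parental 1 to 3 and 7.19, 78.5 and 30.1 in SAP30-KO1 1 to 3. KAT2B, the PCAF subunit of SAGA-type complexes, lay between 62.7 and 89.3, KAT7, the HBO1 enzyme, between 53.6 and 74.9, and CREBBP, the CBP coactivator, between 26.6 and 68.9.

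KAT8, which acetylates lysine 16 of histone H4, ranked 37.9 in Parental 1, had no summit in Parental 2 and 3, and ranked 14.6, 70.9 and 39.0 in SAP30-KO1 1 to 3. KAT5, the TIP60 enzyme, ranked at the bottom of the lists, at 6.58 and 3.14 in Parental 2 and 3 and 9.69 and 5.89 in SAP30-KO1 1 and 3. EP300, the p300 coactivator, had a promoter summit in 1 library, SAP30-KO1 1, at 21.5. KAT8 differed by 28.9 in the mean, and its Parental and SAP30-KO1 ranges overlapped, as did those of the other 7 acetyltransferase genes with a summit.

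Averaged over a class with 0 for no summit, the deacetylase genes ranked 45.4, 38.4 and 46.2 in Parental 1 to 3 and 41.8, 52.9 and 42.0 in SAP30-KO1 1 to 3. The demethylase genes ranked 51.8, 45.7 and 46.7, then 38.9, 58.2 and 46.4. The acetyltransferase genes ranked 39.7, 33.5 and 38.1, then 39.7, 50.6 and 38.2. Demethylase genes came out highest in 5 of the 6 libraries and acetyltransferase genes lowest in 5, with SAP30-KO1 1 the exception for both. SAP30-KO1 2, the longest list, had the highest mean of every class, as it had over the 12572 protein-coding genes with a promoter summit in any library, where it averaged 53.2. SAP30-KO1 minus Parental came to 2.24 for deacetylase (43.3 ± 4.34 to 45.6 ± 6.37), −0.196 for demethylase (48.1 ± 3.27 to 47.9 ± 9.76) and 5.70 for acetyltransferase genes (37.1 ± 3.22 to 42.8 ± 6.73; SD, n = 3), beside 1.15 for the 12572 genes (46.2 ± 3.79 to 47.3 ± 5.57). Libraries of the 2 groups overlapped in every class. Leaving out 1 library turned the sign for deacetylase genes (−0.250 without Parental 2, −1.43 without SAP30-KO1 2) and for demethylase genes (1.67 without Parental 1, 4.29 without SAP30-KO1 1, 0.515 without SAP30-KO1 3), and moved acetyltransferase genes to 1.83 without SAP30-KO1 2. The acetyltransferase difference was 9.87 with a window of 500 bp and 2.01 with the nearest summit. These class means are descriptions with no test, since the genes were chosen with earlier results known.

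**Figure D3:**
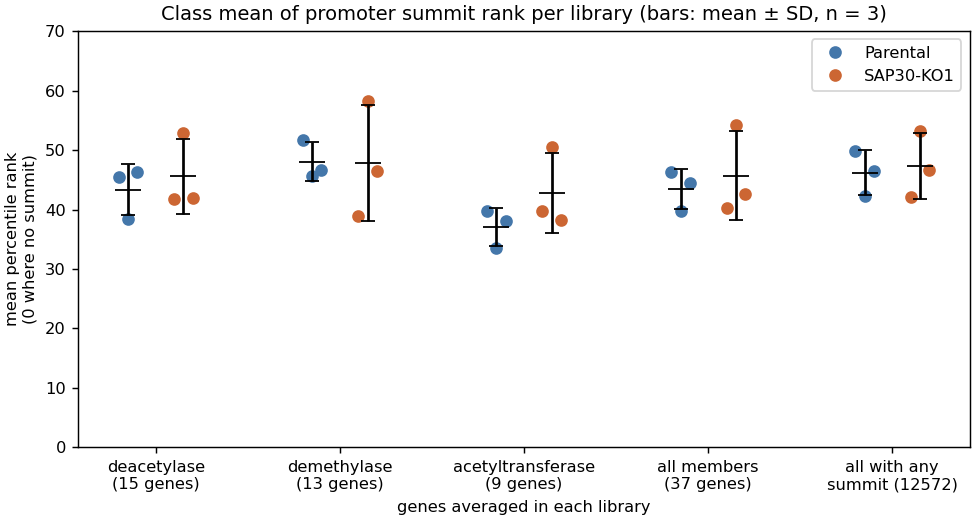
Mean percentile rank of promoter summits (vertical axis, 0 where a gene had no summit) in each library for 3 enzyme classes, for all 37 genes and for the 12572 genes with a summit in any library, with group mean and SD (n = 3). SAP30-KO1 2 is the top point of every set, and the groups overlap in each.

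Non-overlapping ranges were found for 4 of the 31 genes with a summit (12.9%), beside 10.6% of all 12572 genes tested. HDAC9, SIRT1 and KDM4A were higher in every SAP30-KO1 library (3 of 31, background 6.01%) and KDM2A was lower in every one (1 of 31, background 4.57%). Each had the smallest p that 3 libraries against 3 allow in the two-sided exact permutation test, 0.1, with a Benjamini-Hochberg adjusted p of 0.945 over all genes tested, so none passed. The shares lie close to the background. Ranges apart were found for 2 of 11 deacetylase genes, both higher, 2 of 12 demethylase genes, in opposite directions, and 0 of 8 acetyltransferase genes. The median difference over the 31 genes was 2.01, and over all genes tested 0.673.

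HDAC9, a class IIa deacetylase that binds MEF2 factors, ranked 74.8, 57.4 and 50.7 in Parental 1 to 3 and 86.7, 87.8 and 83.4 in SAP30-KO1 1 to 3. All SAP30-KO1 values lay above the highest Parental value, with means of 61.0 ± 12.5 and 86.0 ± 2.32 (SD, n = 3) and a difference of 25.0. This rests on a start inside the gene: at its canonical start HDAC9 ranked 0 in every library, and with the summit nearest to a start the difference was 6.95 and the ranges overlapped. SIRT1, the nuclear sirtuin that deacetylates p53, ranked 65.9, 59.7 and 64.9, then 75.9, 87.0 and 78.0, a difference of 16.8 between means of 63.5 ± 3.31 and 80.3 ± 5.90. KDM4A, which acts on methylated lysines 9 and 36 of histone H3, ranked 74.8, 52.1 and 78.7, then 93.9, 83.5 and 96.2. Its means were 68.5 ± 14.3 and 91.2 ± 6.79, a difference of 22.7 that became 14.5 without Parental 2, its lowest library, with the ranges still apart. KDM2A, which demethylates lysine 36 of histone H3 and binds CpG islands, ranked 90.7, 89.5 and 87.0, then 23.9, 85.7 and 80.8. SAP30-KO1 1 stood far below the others: the means were 89.1 ± 1.88 and 63.5 ± 34.4, and the difference of −25.6 became −5.81 without that library, with the ranges still apart.

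In a limma fit on the ranks of the 6966 genes with a summit in all 6 libraries, 0 genes passed an adjusted p of 0.05 (0.0%) and 484 (6.95%) had an unadjusted p below 0.05. The 19 enzyme genes in that fit held 4 of the latter, KDM4A, HDAC9, SIRT2 and KDM2A. Their number was 0 with ranks within the chromosome arm (5.66% of all genes) and 0 without SAP30-KO1 1 (5.64% of all genes). Under the other alternatives it was at most 4. The limma adjusted p was 0.663 for KDM4A (difference 22.7, SE 9.18), 0.668 for HDAC9, 0.681 for SIRT2, 0.698 for KDM2A and 0.735 for SIRT1. All 4 genes with ranges apart are among these 19, which makes 3 higher (background of the 6966 genes 7.06%) and 1 lower (background 5.7%). KDM2A lies on the long arm of chromosome 11, where 231 genes with a summit in all 6 libraries had a median difference of −12.5, beside 0.335 over the 6966 genes. Ranked among summits of its own chromosome arm, KDM2A differed by −16.6 and the ranges of the groups overlapped. The corresponding medians were 4.04 on the arm of KDM4A (1p), 2.51 on that of HDAC9 (7p) and 0.986 on that of SIRT1 (10q).

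**Figure D4:**
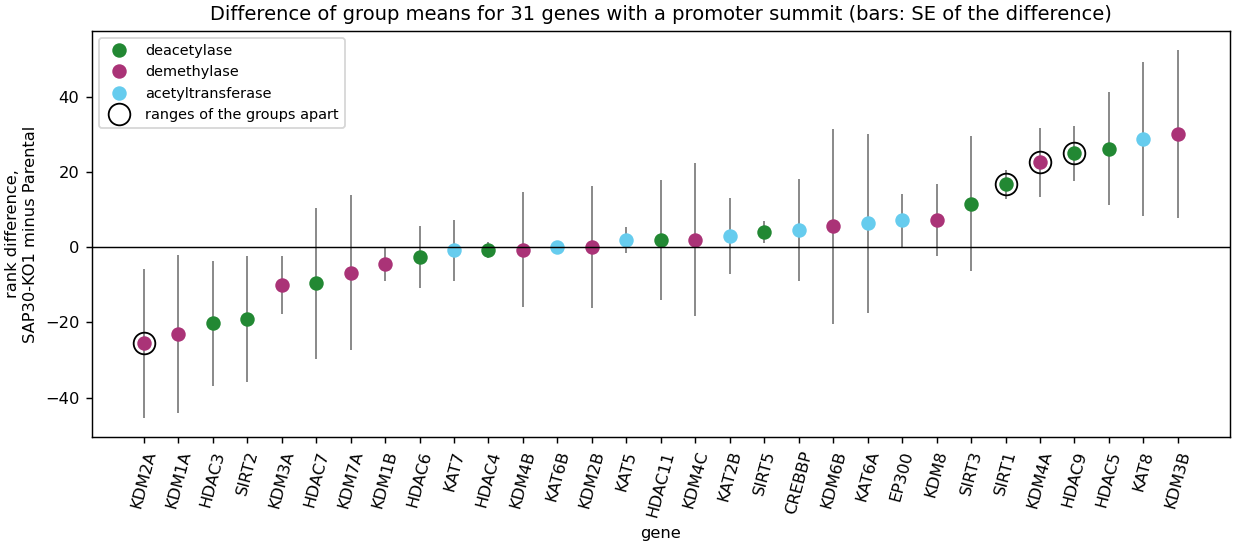
Difference of group means of the promoter rank, SAP30-KO1 minus Parental (vertical axis, percentile points), for the 31 genes with a summit, sorted and coloured by class, with bars of the SE of the difference (n = 3 per group) and circles on genes whose group ranges were apart. The differences run from −25.6 (KDM2A) to 30.2 (KDM3B), and KDM2A, SIRT1, KDM4A and HDAC9 carry circles.

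Summits of different libraries at most 500 bp apart were joined into sites, which gave 49 promoter sites for the 31 genes: 18 genes had a single site and 13 had more. A site was found within 1 kb of the canonical start for 28 genes, and HDAC9, KDM2B and KDM6B had sites at other starts only. Of the 49 sites, 21 held a summit in all 6 libraries and 7 in 1 library. The ranges of the groups were apart, lower in SAP30-KO1, at 2 sites (4.08%, background 4.21% of 13907 sites) and, higher, at 4 (8.16%, background 5.54%). Those 6 sites, on hg19 (GRCh37) and the plus strand, are shown with that of KAT6B as 121 bases from the reference genome. Each stretch holds the median summit position of its site and was moved where needed to leave out annotated untranslated regions. The summits of a site can spread further, over 348 bp for HDAC9, 662 bp for SIRT1 and 711 bp for KDM4A. The printed bases therefore do not hold the summit of every library, and for HDAC9 and SIRT1 they hold no Parental summit.

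For HDAC9, SIRT1, KDM4A and KDM2A the stretches were chr7:18548737-18548857, chr10:69644493-69644613, chr1:44115689-44115809 and chr11:67007389-67007509, and for KAT6B chr10:76586050-76586170. Capitals mark a CCAAT box, a GC box with the letters GGGCGG or an ETS core with the letters CCGGAAG, out of 9 short motifs searched on both strands, so that some stand as their reverse complement.
HDAC9: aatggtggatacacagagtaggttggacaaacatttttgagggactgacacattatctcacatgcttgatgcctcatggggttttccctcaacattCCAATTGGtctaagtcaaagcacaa
SIRT1: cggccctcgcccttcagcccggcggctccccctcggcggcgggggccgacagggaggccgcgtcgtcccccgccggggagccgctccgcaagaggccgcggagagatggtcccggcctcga
KDM4A: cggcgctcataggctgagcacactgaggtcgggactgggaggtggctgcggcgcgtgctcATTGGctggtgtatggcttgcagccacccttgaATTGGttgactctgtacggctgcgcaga
KDM2A: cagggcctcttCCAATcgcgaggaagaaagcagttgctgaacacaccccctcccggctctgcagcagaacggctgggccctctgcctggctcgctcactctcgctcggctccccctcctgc
KAT6B: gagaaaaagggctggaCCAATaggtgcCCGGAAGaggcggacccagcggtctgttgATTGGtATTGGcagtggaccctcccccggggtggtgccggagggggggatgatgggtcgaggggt
The HDAC9 site lies in an intron, 13425 bp downstream of the canonical start. It is −99 bp from another protein-coding start (a minus sign means upstream), in AT-rich sequence (42.1% GC). The SIRT1 stretch, 139 bp into the gene in the coding part of its opening exon, is 81.0% G and C. The printed SIRT1 bases hold none of the 9 motifs. The wider window read for the motif shares given below held a GC box and a YY1 core at the same SIRT1 site. KDM4A was read just before its start, at −71 bp, with 2 reversed CCAAT boxes. KAT6B, at −215 bp from the canonical start and in an intron of a longer transcript, holds 3 CCAAT boxes and an ETS core.

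KDM2A was measured at an internal start. Its site in all 6 libraries lay 120715 bp downstream of the canonical start, in an intron and at −69 bp from the start of a shorter protein-coding transcript, and it is this site that ranked 23.9 in SAP30-KO1 1. At −174 bp from the canonical start a summit was listed in 3 libraries, at 61.6 in Parental 3 and 37.3 and 41.7 in SAP30-KO1 2 and 3, and the difference there was 5.79, in the other direction. HDAC9 had 3 sites, and the other 2, at −408984 bp and 297652 bp from the canonical start, had overlapping ranges. The upstream one ranked 22.997 in Parental 1 and 6.86, 28.1 and 8.07 in SAP30-KO1 1 to 3, and the downstream one 8.96, 53.5 and 35.5, then 1.75, 86.6 and 62.4.

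KDM3A, which removes mono- and dimethyl groups from lysine 9 of histone H3, had 2 sites that differed in opposite directions, which its strongest summit alone did not show. By strongest summit it ranked 77.7, 70.4 and 90.6 in Parental 1 to 3 and 63.7, 79.2 and 65.7 in SAP30-KO1 1 to 3, with overlapping ranges. The site at −114 bp from the canonical start ranked those same values in Parental 1 to 3 but 55.2, 43.9 and 43.8 in SAP30-KO1 1 to 3, lower in every one, a difference of −31.9 between means of 79.6 ± 10.2 and 47.6 ± 6.55. The other site, 1275 bp downstream of that start, lay in an intron. It was also 322 bp downstream of another annotated start, that of a transcript with no defined coding sequence. This site was listed in Parental 2 alone among the Parental libraries, at 46.5, and ranked 63.7, 79.2 and 65.7 in SAP30-KO1 1 to 3, a difference of 54.0. The strongest SAP30-KO1 summit of the gene was therefore the intronic one in every library and the strongest Parental one the start site. Of 986 pairs of neighbouring promoter sites within 2 kb over all protein-coding genes, this was the 1 pair (0.101%) with ranges apart in opposite directions, a pattern singled out after its values were seen.
KDM3A start: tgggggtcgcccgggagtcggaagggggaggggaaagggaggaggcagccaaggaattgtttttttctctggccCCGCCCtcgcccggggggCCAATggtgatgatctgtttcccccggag
KDM3A intron: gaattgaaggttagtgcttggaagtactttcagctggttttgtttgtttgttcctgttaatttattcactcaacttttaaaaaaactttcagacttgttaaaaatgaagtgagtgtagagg
The stretches are chr2:86668274-86668394 and chr2:86669709-86669829, printed with the same capitals. The start site is 65.3% G and C and carries a CCAAT box and a GC box, and the intronic one is 32.2% G and C with none of the 9 motifs.

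**Figure D5:**
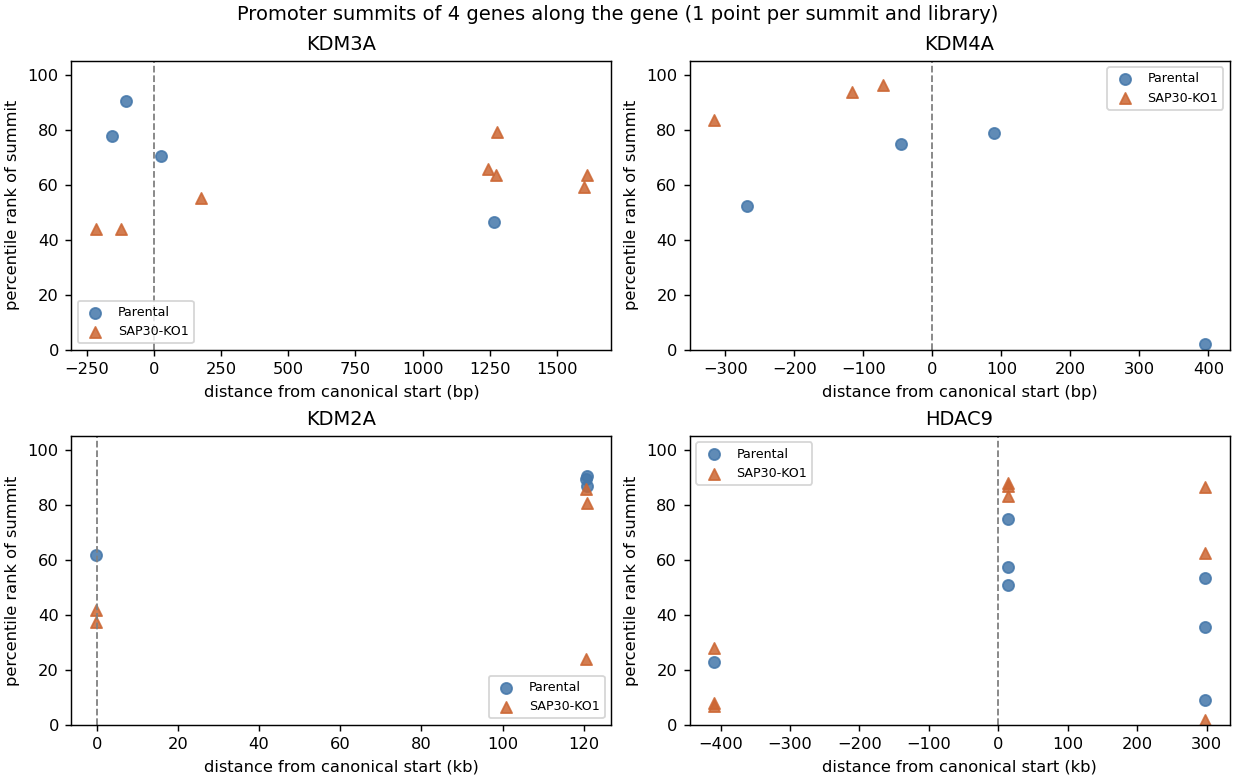
Every promoter summit of KDM3A, KDM4A, KDM2A and HDAC9 by its distance from the canonical start (horizontal axis, bp in the upper panels and kb in the lower) and its percentile rank (vertical axis), 1 point per summit and library. In KDM3A the Parental points are highest at the start and the SAP30-KO1 points highest in the intron, and in KDM2A the SAP30-KO1 point at 23.9 lies at the internal site.

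Other enzyme genes were also read away from their main start. The CREBBP site found in all 6 libraries lies in an intron 134635 bp inside the gene, near the start of a transcript with a retained intron, and ranked 52.7, 26.6 and 53.7 in Parental 1 to 3 and 68.9, 42.9 and 34.9 in SAP30-KO1 1 to 3. At its main start, at −270 bp, a summit was listed in SAP30-KO1 2 alone, at 5.92. HDAC5 was spread over 3 sites, of which the one at −268 bp from its canonical start was listed in SAP30-KO1 1 and 2, at 30.5 and 60.2, and in no Parental library. HDAC11 had its canonical site and a site 16367 bp inside the gene, the latter listed in 5 libraries and differing by 29.0 with overlapping ranges. KAT2B had 4 sites, 2 of them in all 6 libraries: that at −398 bp from its start, which ranked 58.5 to 89.3, and that in an intron 71692 bp downstream, which ranked 34.5 to 74.2. Several promoters are shared with a protein-coding neighbour, so their summits cannot be given to 1 gene: HDAC3 with RELL2, SIRT2 with NFKBIB, SIRT3 with PSMD13, KDM1A with TEX46, KDM1B with TPMT, KAT7 with FAM117A and KDM4A with a locus that has no symbol.

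Summits inside a gene but more than 1 kb from all its starts, which the choice of promoter summits did not use, were listed for 17 of the 37 genes. Their number over the 37 genes was 32, 19 and 28 in Parental 1 to 3 and 25, 33 and 28 in SAP30-KO1 1 to 3, or 0.712 ± 0.180 and 0.775 ± 0.109 per gene (SD, n = 3), a difference of 0.0631 within the spread. HDAC9, the longest of these genes at 915 kb, held 11, 3 and 7 in the Parental and 10, 12 and 11 in the SAP30-KO1 libraries. HDAC4 held 5, 5 and 3, then 2, 4 and 4. Among demethylase genes KDM2B held 2, 2 and 4, then 1 in each SAP30-KO1 library, and KDM4C 0, 2 and 3, then 1, 2 and 3. KAT2B led the acetyltransferase genes with 4, 2 and 3, then 2, 4 and 2. Of the 6 genes with no promoter summit, HDAC8 had 2, 1 and 3, then 1, 2 and 1 summits inside the gene and SIRT7 had 1 in each of 4 libraries.

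Motif content of the enzyme sites was compared with that of other promoter sites as a description. In 301 bases around the 21 enzyme sites found in all 6 libraries, a CCAAT box stood in 57.1% and a GC box in 57.1%, beside 37.8% and 69.96% of 6188 sites found in all 6 libraries over all protein-coding genes. The ETS core, the TATA box with the letters TATAAA, the NRF1 core with the letters GCGCATG, the cAMP response element core with the letters TGACGT and the AP-1 site with the letters TGANTCA each stood in 1 enzyme site (4.76%, beside 17.0%, 2.93%, 6.21%, 10.47% and 7.79%). The YY1 core with the letters AAGATGG and the E-box with the letters CACGTG each stood in 2 (9.52%, beside 5.54% and 7.85%). The AP-1 letters belonged to the intronic site of KAT2B and the ETS core to KAT6B. In RefSeq promoter sequences of the GRCh38.p14 build, 250 bases before to 50 after the start, matched for 33 of the 37 genes, the order was different: a GC box stood in 63.6%, a CCAAT box in 30.3%, an ETS core in 24.2% and a TATA box in 0 of 33, beside 44.6%, 35.7%, 10.7% and 11.95% of 27305 promoters of all gene types. The other 5 motifs stood in 6.06% to 12.1% of the 33 and in 4.67% to 8.32% of the 27305. Both strands were searched, and no match says only that these letters are not in the window.

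Other enzymes of the same 3 kinds and the complexes in which the 37 work were read the same way. Of 20 further enzyme genes, 19 had a promoter summit, 10 of them in all 6 libraries, and 3 had ranges apart (15.8%, background 10.6%): RIOX1 was lower (63.6 in Parental, 16.3 in SAP30-KO1, difference −47.3), and RIOX2 and JMJD6, Jumonji oxygenases like it, were higher by 31.6 and 46.3. HDAC1 and HDAC2, the catalytic subunits of the SIN3 complex to which SAP30 belongs, had overlapping ranges: HDAC1 ranked 45.6 in Parental 3 and 14.7 and 31.4 in SAP30-KO1 2 and 3 with no summit elsewhere, and HDAC2 62.4, 50.7 and 38.01, then 69.4, 71.7 and 48.9. Of 43 partner genes 36 had a summit, 21 in all 6 libraries, and 4 had ranges apart (11.1%, background 10.6%). TAF5L and KANSL2, scaffold subunits of KAT2 and KAT8 complexes, were lower (differences −50.9 and −14.5), and SUPT20H, a SAGA subunit, was higher by 16.1. Each of the 6 genes named with ranges apart had an exact permutation p of 0.1 and an adjusted p of 0.945.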

How the data were processed

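ATAC-seq summit lists of 3 Parental and 3 SAP30-KO1 libraries were read. The deposited values were −log10 of the MACS2 q value at each summit. Per the labels and the study's methods, the authors trimmed single-end reads with Trim Galore 0.4.5, aligned them to hg19 with Bowtie2 2.3.3.1, removed duplicates with Picard and called peaks per library with MACS2 2.1.0 at a q value of 0.05. No read shift for the transposase is stated, and MACS2 scores grow with depth, which the lists do not give.

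Scores were ranked within a library and joined to GENCODE 44 starts lifted to GRCh37 with Python 3.11.15, numpy 2.4.6 and pandas 2.3.3. Every summit lay within the GRCh37 chromosome lengths. Genes were compared by a two-sided exact permutation test over 20 assignments of the libraries and by limma 3.58.1 (R 4.3.3), with Benjamini-Hochberg adjustment over all genes tested. On ranks simulated for 6966 genes, the limma step called 61% of drops of 40 and 96% of drops of 70, and 0 unchanged genes. Only drops were simulated, and the drops of 40 and of 70 alike were placed only in genes with a mean rank near the top of the lists. The shares therefore need not hold for rises or for genes of lower rank. In the real fit the SE was 1.15 for KAT6B, the highest enzyme gene fitted, and 18.5 for KAT6A, the lowest. No 2 libraries shared over 0.598% of summit positions, so none was a copy. Replicate numbers did not pair the libraries (correlation of deviations −0.0286 to 0.0115).

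The genes, lists and tests were chosen with earlier results of these data known. Every gene was accounted for, with values in each library for those with ranges apart, called by limma, with a summit in some libraries, highest or lowest of their class among those with a summit in all 6, or richest in summits inside the gene; from other lists, those with ranges apart and, chosen after their values were seen, HDAC1 and HDAC2. A marker gene and a partner gene of these lists are not reported here. Motifs around sites were added to the RefSeq promoters after the files were seen.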

Additional observations from a re-analysis of the deposited data

How the results depend on the processing

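The class means, the number of genes with a promoter summit and the number of summits inside genes moved by less than 1 SD between libraries under each alternative run, and the limma count stayed at 0 of the enzyme genes. Some signs turned: leaving out 1 library gave −1.43 to 4.13 for deacetylase, −5.39 to 4.29 for demethylase and 1.83 to 7.99 for acetyltransferase genes. The last was 5.70 (SD 5.28), against 9.87 with the 500 bp window and 7.75 with ranks within the chromosome arm. The count of enzyme genes lower in every SAP30-KO1 library was 1, and became 0 with summits of q 0.0001 or less, 0 with ranks within the chromosome arm, 0 with log2 of the score, 2 with the nearest summit, and 0 without the genes of chromosome arm 11q, an alternative chosen after seeing the data. The gene gained with the nearest summit was KDM3A (−26.8), which the canonical start alone also set apart (−31.9). KDM2A turned to 5.79 with canonical starts alone. HDAC9 has no summit at its canonical start and its ranges overlapped with the nearest summit (6.95). SIRT1 and KDM4A held in all 15 alternatives counted for each, with log2 of the score left out of the count. To hold meant ranges apart, except under the replicate block, where it meant the same sign in all 3 pairs. With same-numbered libraries paired as a replicate block, 3 enzyme genes were lower and 5 higher in all 3 pairs, where 25.0% of genes have 1 sign by construction if nothing differs, and limma with the block called 0 genes, with 397 genes at an unadjusted p below 0.05 in place of 484. The numbers do not pair the libraries, so these are no firmer. Leaving out 1 library, the count lower was 1 to 4 (2 without SAP30-KO1 1, 4 without SAP30-KO1 2, 2 without SAP30-KO1 3). The count higher was 3 to 6 (5 without Parental 2, 6 without SAP30-KO1 1, 6 without SAP30-KO1 3). Ranges of fewer libraries come apart more easily. The share of all genes with ranges apart was not worked out under any alternative, so these counts have no background beside them. With 1 library left out, HDAC9 differed by 19.9 to 31.9, SIRT1 by 13.5 to 18.99, KDM4A by 14.5 to 27.8 and KDM2A by −36.7 to −5.81. The causes of these changes were not tested. With 3 libraries a group the exact test cannot pass 0.05, and the read depth behind the ranks is unknown.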
